A study of Homo sapiens with 24 samples.

Results

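The transcripts of 10 genes of calcium handling in heart muscle cells were followed by bulk RNA sequencing: RYR2, ATP2A2, PLN, SLN, CASQ2, CACNA1C, CACNB2, SLC8A1, TRDN and HRC. They were chosen by name for what their proteins do, and were found through the Ensembl identifiers that map to these symbols. All 10 were present among the 62757 genes of the deposited count table, and all 10 were among the 17724 genes that passed the filter on low counts. The cells derived from the human embryonic stem cell line HES3 with a GFP reporter at NKX2-5 and an mCherry reporter at NR2F2, which all groups carried. They were differentiated as embryoid bodies, for up to 14 days, with a protocol that modulates Wnt signalling. CRISPR-Cas9 was directed at LHX2, ZNF503 or ZNF711, or at TRAC, a gene of the T cell receptor that served as the control target. Each of the 4 targets was grown under 2 protocols that the labels call AM and VM. These were read as the atrial condition, which received retinoic acid at day 4, and the ventricular condition, which did not. The 8 groups of protocol and target held 3 libraries each, numbered 1 to 3, for 24 libraries. The labels do not say whether a group was 1 clone or several, or whether its libraries came from separate cultures, so p-values measure the spread between these libraries, which may be technical.

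In a heart muscle cell, the membrane depolarisation opens L-type calcium channels, and the calcium that enters opens ryanodine receptors of the sarcoplasmic reticulum, which release the stored calcium that drives contraction. The cell relaxes when the pump SERCA returns calcium to the reticulum and the sodium-calcium exchanger carries the rest out. Phospholamban and sarcolipin are small membrane proteins that hold SERCA back, and sarcolipin is known as an atrial form in the human heart.

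Total counts ran from 2899786 to 7438010 per library, and the 10 genes took between 0.150% and 0.431% of them. Levels are given in counts-per-million units (CPM) of the library total after scaling by TMM (trimmed mean of M values). In these libraries 3 counts corresponded to between 0.403 and 1.03 CPM, the level below which a transcript could not be told from none. Defining heart muscle genes were present throughout: each of 12 cardiomyocyte reference genes, TNNT2 and TTN among them, had counts in every library. Ventricular marker genes had a lower summed level in AM (121 to 578 CPM) than in VM (637 to 1918 CPM). The summed level of 8 atrial marker genes overlapped, at 6010 to 14279 CPM in AM and 4242 to 15671 in VM. Of these, 5 were higher in AM and 1 lower, and the medians of MYH6 (7624 CPM in AM, 8165 in VM), MYL7 (587 and 1169) and NPPA (4.52 and 11.3) were higher in VM. The targeted genes were an incomplete check of the labels, because the positions of the guides were not given in the sources used here. ZNF503 RNA was higher in libraries labelled ZNF503, at 255 to 367 CPM in AM against 103 to 123 in AM TRAC, and at 19.1 to 45.3 in VM against 8.82 to 16.2 in VM TRAC. ZNF711 stood at 31.2 to 55.8 CPM in AM ZNF711 against 47.4 to 60.3 in AM TRAC, and at 25.9 to 33.9 in VM ZNF711 against 34.6 to 48.0 in VM TRAC. LHX2 had at most 34 counts and TRAC at most 19 in any library, too few to check them.

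The VM libraries were of more than 1 kind, which touches most results that follow. In VM TRAC, LHX2 and ZNF503, the summed level of the 12 reference genes was 25965 to 33828 CPM in the libraries numbered 1 and 2 and 11343 to 15370 CPM in those numbered 3. It was 9318 to 13138 CPM in all 3 VM ZNF711 libraries and 11324 to 20339 CPM in AM. TTN held most of this sum, with medians of 19330 CPM in VM numbers 1 and 2 and 8825 in number 3. The other reference genes also had lower medians in number 3, except TCAP (15.9 against 14.9 CPM). CSRP3 (22.2 against 23.9) and ACTN2 (678 against 832) fell less than TTN. A list of 8 endoderm and hepatic genes was also summed. It came to 1225 to 2747 CPM in numbers 1 and 2 of VM TRAC, LHX2 and ZNF503, and to 7414 to 20031 in their number 3. It came to 7584 to 21297 CPM in VM ZNF711 and 205 to 1964 in AM. AFP had the highest median of the list in each set (1521, 9500, 10547 and 239 CPM, in the same order). AFP, ALB, APOA1 and AHSG had lower medians in AM than in VM numbers 1 and 2. TTR (138 against 61.0 CPM), FGB, FOXA2 and SOX17 had higher ones. In bulk samples, fewer heart muscle cells and less RNA of a gene per cell cannot be told apart. The tests of the 10 genes and of their ratios were therefore also computed without the number 3 libraries.

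The pump was the clearest of the 10. ATP2A2 (ENSG00000174437.18, chr12:110280756-110351093, plus strand; positions here are from the GENCODE 29 annotation of GRCh38) encodes SERCA2, the calcium pump of the cardiac sarcoplasmic reticulum. In AM, replicates 1, 2 and 3 stood at 1305, 1399 and 1692 CPM with TRAC, 1295, 1267 and 1783 with LHX2, 1126, 1099 and 1598 with ZNF503, and 1662, 2016 and 1650 with ZNF711. In VM they stood at 690, 861 and 662 CPM with TRAC, 756, 886 and 652 with LHX2, 750, 899 and 683 with ZNF503, and 589, 691 and 573 with ZNF711. Every AM library lay above every VM library, and the ranges did not overlap. The mean was 1491 ± 284 CPM in AM and 724 ± 109 in VM (SD, n = 12 each), and averaged over the 4 targets ATP2A2 was 2.05-fold higher in AM (log2 1.04, SE 0.09, adjusted p = 1.72e-09; edgeR's quasi-likelihood test, Benjamini-Hochberg over all genes tested). In order of level the groups were AM ZNF711 (1776 ± 208 CPM, SD, n = 3), AM TRAC (1465 ± 202), AM LHX2 (1448 ± 290), AM ZNF503 (1274 ± 280), VM ZNF503 (778 ± 111), VM LHX2 (764 ± 117), VM TRAC (738 ± 107) and VM ZNF711 (618 ± 64.0). Within a protocol, neighbours in this order differed by less than the SD of at least 1 of them, except for AM ZNF711 over AM TRAC and VM TRAC over VM ZNF711.

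The inhibitors of the pump went in opposite directions between the protocols, sarcolipin higher and phospholamban lower in AM. Their coding sequences are shown to identify this pair of small proteins. SLN (ENSG00000170290.4, chr11:107707378-107719693, minus strand) has a reading frame of 31 codons at chr11:107707835-107707930, and PLN (ENSG00000198523.6, chr6:118548298-118560730, plus strand) has one of 52 codons at chr6:118558922-118559080, each within a single exon of GRCh38. Capitals mark the start and the stop codon.
SLN: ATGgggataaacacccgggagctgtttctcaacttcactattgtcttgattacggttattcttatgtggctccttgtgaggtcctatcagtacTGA
PLN: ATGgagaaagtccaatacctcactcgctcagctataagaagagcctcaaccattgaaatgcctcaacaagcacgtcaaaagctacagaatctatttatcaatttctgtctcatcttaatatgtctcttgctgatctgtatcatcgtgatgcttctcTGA

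SLN was scarce. In AM, replicates 1, 2 and 3 stood at 5.06, 8.58 and 9.11 CPM with TRAC, 1.28, 5.43 and 3.04 with LHX2, 5.93, 7.32 and 3.53 with ZNF503, and 5.11, 3.83 and 12.5 with ZNF711. In VM they stood at 0, 0.825 and 3.13 CPM with TRAC, 0, 0.213 and 0.400 with LHX2, 0, 0.409 and 0.645 with ZNF503, and 2.97, 4.89 and 3.76 with ZNF711. The AM and VM ranges did not overlap with LHX2, ZNF503 or TRAC, but did with ZNF711. SLN was higher in AM averaged over the targets (log2 2.76, SE 0.42, adjusted p = 1.06e-05; edgeR). Because 3 VM libraries had no count, the counts themselves are given beside this fitted value. Over 12 libraries each, SLN had 361 counts in AM and 89 in VM. The pooled ratio was 4.00 after scaling by library size (95% interval 3.16 to 5.10, counting error only). VM ZNF711 supplied 56 of the 89, so the pooled ratio leans to that target, while the fitted value weighs the 4 targets alike. The ratio was 5.02 (3.25 to 8.03) from 133 and 25 counts with TRAC, 16.8 (5.35 to 84.7) from 41 and 3 with LHX2, 15.5 (6.42 to 48.9) from 95 and 5 with ZNF503, and 1.70 (1.20 to 2.41) from 92 and 56 with ZNF711. Skeletal muscle also makes sarcolipin. The 8 markers of skeletal muscle summed to 5.95 to 13.0 CPM in AM and 7.52 to 18.5 in VM, a level not below that of SLN itself. Most of it came from MYH3 (median 4.56 CPM in AM and 4.01 in VM) and TNNT3 (2.18 and 5.78), while MYF5 had no count in 23 of 24 libraries and MYOD1 none in 17. Their part in the SLN result was not tested.

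PLN was lower in AM. Its levels in replicates 1, 2 and 3 of AM were 20.4, 24 and 32.3 CPM with TRAC, 24.1, 35.2 and 58.6 with LHX2, 24.9, 12.1 and 46.4 with ZNF503, and 29.3, 35 and 30.7 with ZNF711. In VM they were 60.7, 136 and 31.1 CPM with TRAC, 80.5, 193 and 42.6 with LHX2, 90.6, 130 and 48.8 with ZNF503, and 21.5, 49.3 and 29.7 with ZNF711. The high VM libraries were numbers 1 and 2 of TRAC, LHX2 and ZNF503, and the other 6 VM libraries lay within the AM range. Averaged over targets, PLN was 2.28-fold lower in AM (log2 -1.19, SE 0.30, adjusted p = 0.00538; edgeR), with means of 31.1 ± 12.2 and 76.1 ± 52.5 CPM (SD, n = 12 each). PLN lies inside the gene CEP85L, which is read from the other strand. Counts of CEP85L came to 83.4% of those of PLN, and CEP85L itself did not pass the test between the protocols (log2 0.12). The strand used in counting was not given in the sources used here, so reads of PLN and CEP85L may have been shared.

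**Figure D1:**
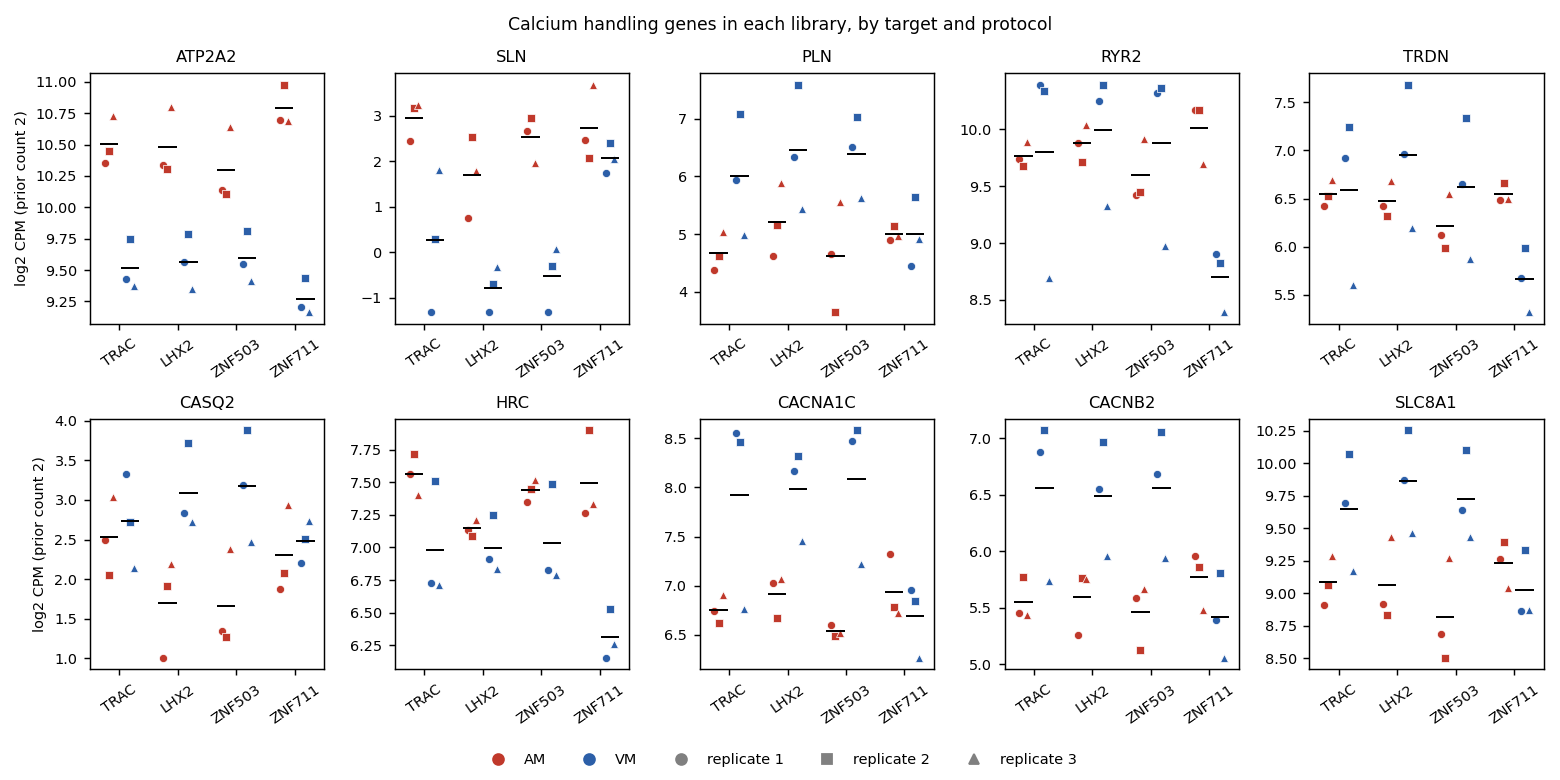
Level of each of the 10 genes in every library as log2 CPM (prior count 2), by target, with AM in red, VM in blue, a marker shape for each replicate number and a black bar for the mean of 3 libraries; axes differ between genes. ATP2A2 separates the protocols in every target, while RYR2, CACNA1C, CACNB2, PLN and TRDN place VM numbers 1 and 2 of TRAC, LHX2 and ZNF503 above the other VM libraries.

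The release channel and its partners did not move as a unit. RYR2 (ENSG00000198626.18, chr1:237042205-237833988, plus strand) encodes the cardiac ryanodine receptor. In AM its replicates 1, 2 and 3 stood at 856, 818 and 949 CPM with TRAC, 944, 838 and 1053 with LHX2, 687, 698 and 967 with ZNF503, and 1151, 1152 and 827 with ZNF711. In VM they stood at 1342, 1293 and 412 CPM with TRAC, 1219, 1346 and 643 with LHX2, 1277, 1314 and 503 with ZNF503, and 478, 453 and 335 with ZNF711. The VM values thus lay on both sides of the AM range: 6 were above it, at 1219 to 1346 CPM, and 6 below it, at 335 to 643. The means of 912 ± 154 CPM in AM and 885 ± 439 in VM (SD, n = 12 each) did not differ by test (log2 0.13, SE 0.18, adjusted p = 0.640; edgeR), and the 95% interval of the difference from its SE, from -0.23 to 0.49, leaves differences of either sign. Without the number 3 libraries the difference was -0.20 (adjusted p = 0.0569).

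TRDN (ENSG00000186439.14, chr6:123216339-123637093, minus strand) encodes triadin, which ties the ryanodine receptor to calsequestrin. It ran from 62.8 to 103 CPM in AM with a median of 89.6, and from 39.5 to 205 in VM with a median of 86.6, in the same 2 sets of VM libraries as RYR2. Its difference did not pass the test (log2 -0.10, SE 0.19, adjusted p = 0.727; edgeR) and was called without the number 3 libraries (-0.47, adjusted p = 0.00492). TRDN-AS1, an antisense transcript inside TRDN, averaged 0.0260 CPM in AM, which is below 3 counts in a library, and 5.76 in VM (adjusted p = 9.63e-06; edgeR), and its counts were 3.02% of those of TRDN.

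CASQ2 (ENSG00000118729.12, chr1:115700007-115768781, minus strand) encodes cardiac calsequestrin, the main calcium buffer inside the reticulum. It was scarce, from 1.61 to 7.83 CPM in AM (median 3.79) and from 4.02 to 14.3 in VM (median 6.24), and the protocols overlapped. It was 1.83-fold lower in AM (log2 -0.87, SE 0.24, adjusted p = 0.00655; edgeR). HRC (ENSG00000130528.12, chr19:49151198-49155424, minus strand) encodes the histidine-rich calcium-binding protein, which also sits in the reticulum and binds triadin and SERCA. It ran from 136 to 238 CPM in AM (median 166) and from 70.7 to 182 in VM (median 112), again with overlap. HRC was 1.48-fold higher in AM (log2 0.56, SE 0.10, adjusted p = 0.000129; edgeR). On the average over targets, RNA of the pump and of HRC was thus higher in AM and that of calsequestrin lower.

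The entry channel was lower in AM. CACNA1C (ENSG00000151067.23, chr12:1970786-2697950, plus strand) encodes the pore of the L-type channel of heart muscle. Replicates 1, 2 and 3 of AM stood at 107, 98.2 and 119 CPM with TRAC, 130, 101 and 134 with LHX2, 96.7, 89.2 and 91.4 with ZNF503, and 160, 110 and 105 with ZNF711. In VM they stood at 376, 352 and 108 CPM with TRAC, 287, 318 and 175 with LHX2, 353, 382 and 149 with ZNF503, and 124, 115 and 76.5 with ZNF711. The VM libraries above the whole AM range were those numbered 1 and 2 of TRAC, LHX2 and ZNF503 and number 3 of LHX2. CACNA1C was 1.96-fold lower in AM (log2 -0.97, SE 0.19, adjusted p = 0.000483; edgeR). CACNB2 (ENSG00000165995.24, chr10:18140677-18543557, plus strand), a beta subunit that carries the pore to the membrane, ran from 34.4 to 61.8 CPM in AM (median 49.0) and from 32.8 to 134 in VM (median 77.5). It was 1.64-fold lower in AM (log2 -0.72, SE 0.16, adjusted p = 0.00125 in edgeR). Genes on the other strand overlap both. Counts of DCP1B came to 12.4% of those of CACNA1C, and counts of AL450384.2 to 4.35% of those of CACNB2. As the strand used in counting was not given, reads may have been shared here too.

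SLC8A1 (ENSG00000183023.19, chr2:40097270-40611053, minus strand) encodes NCX1, the sodium-calcium exchanger of the surface membrane. It ran from 362 to 692 CPM in AM (median 532) and from 466 to 1221 in VM (median 753), with overlap, and was 1.44-fold lower in AM (log2 -0.53, SE 0.12, adjusted p = 0.00157; edgeR). Per kilobase of exon, the scale on which genes can be compared, the means in AM were 108 CPM per kb for ATP2A2, 64.0 for HRC, 51.3 for RYR2, 24.6 for SLC8A1, 15.5 for PLN, 13.1 for TRDN, 6.51 for SLN, 5.85 for CACNA1C, 5.42 for CACNB2 and 1.48 for CASQ2. In VM they were 52.7 for ATP2A2, 49.8 for RYR2, 44.0 for HRC, 38.0 for PLN, 36.2 for SLC8A1, 14.9 for TRDN, 12.3 for CACNA1C, 9.39 for CACNB2, 2.69 for CASQ2 and 1.59 for SLN. On these means the pump led in both protocols, and calsequestrin was near the bottom in both. Within VM, RYR2 stood above ATP2A2 with TRAC (57.1 against 53.7 CPM per kb), LHX2 (60.1 against 55.6) and ZNF503 (58.0 against 56.6). It stood below ATP2A2 with ZNF711 (23.7 against 44.9).

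Averaged over the 4 targets, then, 8 of the 10 genes differed between AM and VM, against 34.5% of all genes tested. ATP2A2, SLN and HRC were higher in AM (16.8% of all genes were) and PLN, CACNA1C, CASQ2, CACNB2 and SLC8A1 were lower (17.6%). The median difference of the 10 genes was log2 -0.31, beside -0.01 for all genes tested. None of these 8 calls was lost in any of the 24 fits that each left out 1 library, or in the other alternatives, among them a fit with the replicate number as a term (41.7% of all genes). Without the number 3 libraries, 9 were called against 25% of all genes, and SLN (3.42), PLN (-1.77), CASQ2 (-1.41), CACNA1C (-1.26), CACNB2 (-0.96) and SLC8A1 (-0.80) were farther apart, while ATP2A2 (0.85) and HRC (0.49) were closer. The 12 reference genes were lower in AM in 6 cases and higher in none, with a median of log2 -0.44.

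**Figure D2:**
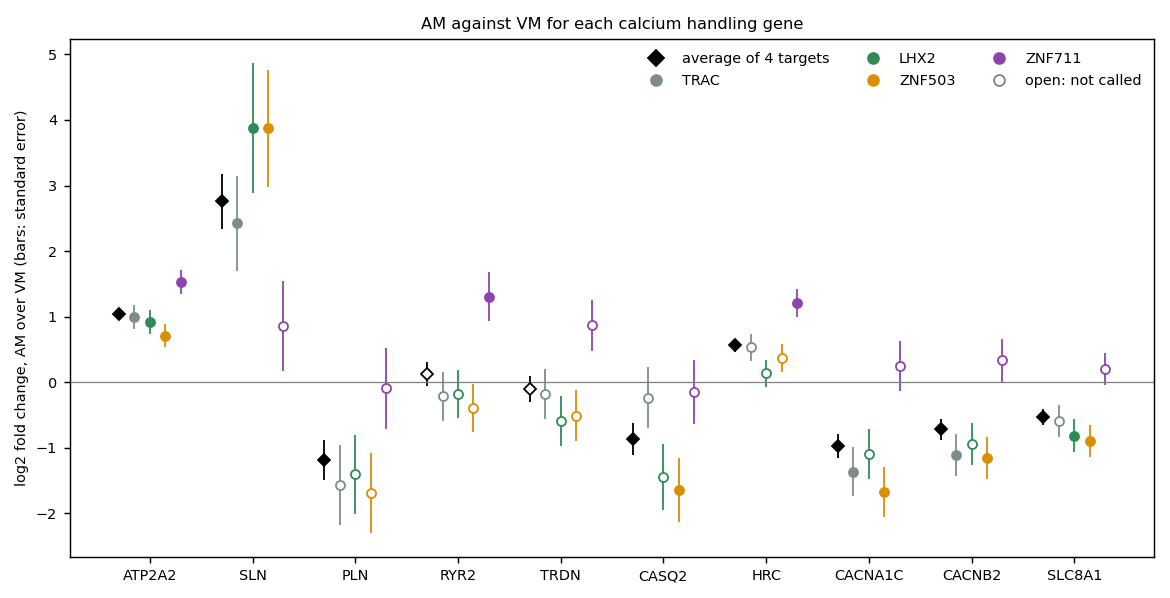
Difference between AM and VM for each of the 10 genes on a log2 scale, averaged over the 4 targets (diamonds) and within each target (circles), with bars for the standard error and filled symbols for called differences. Values above 0 are higher in AM: ATP2A2 is above 0 in all 4 targets, and PLN, CACNA1C, CACNB2 and SLC8A1 are below 0 in TRAC, LHX2 and ZNF503.

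Within single targets, 3 libraries against 3, fewer genes passed. With TRAC, the control, 4 of the 10 were called, against 11.3% of all genes: SLN (log2 2.42, adjusted p = 0.0307) and ATP2A2 (0.99, adjusted p = 0.000566) higher in AM, CACNA1C (-1.36, adjusted p = 0.0242) and CACNB2 (-1.11, adjusted p = 0.0261) lower. With LHX2, 3 were called, against 8.56%: SLN (3.88, adjusted p = 0.0131), ATP2A2 (0.92, adjusted p = 0.00140) and SLC8A1 (-0.81, adjusted p = 0.0389). With ZNF503, 6 were called, against 8.86%: SLN (3.87, adjusted p = 0.00540), ATP2A2 (0.71, adjusted p = 0.0119), CASQ2 (-1.65, adjusted p = 0.0327), CACNA1C (-1.67, adjusted p = 0.00800), CACNB2 (-1.16, adjusted p = 0.0235) and SLC8A1 (-0.90, adjusted p = 0.0206). The medians of the 10 genes were -0.22, -0.70 and -0.70 in these 3 targets, beside -0.03, 0.00 and 0.00 for all genes. PLN was called in none, at -1.56 (adjusted p = 0.117) with TRAC, -1.40 (0.192) with LHX2 and -1.69 (0.106) with ZNF503. All these p-values are from edgeR.

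Several of these within-target calls were lost in more than 1 of the fits that each left out 1 library. The share of all genes called also fell in each of these fits, to between 6.19% and 9.79% with TRAC, 4.88% and 6.89% with LHX2, and 5.58% and 6.88% with ZNF503. With TRAC the count was 2 without AM TRAC replicate 1 or VM TRAC replicate 2, 1 without AM TRAC replicate 2, AM TRAC replicate 3 or VM TRAC replicate 1, and 5 without VM TRAC replicate 3. ATP2A2 was the gene left where the count was 1. With LHX2 the count was 2 without AM LHX2 replicate 1 or VM LHX2 replicate 2, 1 without AM LHX2 replicate 2 or VM LHX2 replicate 1, and 4 without VM LHX2 replicate 3. With ZNF503 it was 3 without AM ZNF503 replicate 1 or 2 or VM ZNF503 replicate 2, 4 without VM ZNF503 replicate 1, and 5 without AM ZNF503 replicate 3 or VM ZNF503 replicate 3. The ATP2A2 call with ZNF503 was lost in both of those last fits, at 0.52 (adjusted p = 0.113) and 0.63 (adjusted p = 0.0648). Without all number 3 libraries, 7, 9 and 8 genes were called in the 3 targets, against 8.72%, 7.47% and 7.99% of all genes, but the ATP2A2 call with ZNF503 was lost (0.44, adjusted p = 0.164). RYR2 was then lower in AM in each of them, at -0.65, -0.52 and -0.90, and so was PLN, at -2.14, -2.19 and -2.56. The replicate block, a fit with the replicate number as a term, added HRC with TRAC (0.57, adjusted p = 0.00228) and with ZNF503 (0.41, adjusted p = 0.0359), and CASQ2 (-1.46, adjusted p = 0.0347) and CACNB2 (-0.87, adjusted p = 0.0420) with LHX2, where SLC8A1 was lost (-0.79, adjusted p = 0.0627). It called 19.4%, 14.9% and 15.7% of all genes with TRAC, ZNF503 and LHX2.

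With ZNF711, 3 of the 10 genes were called, all higher in AM, against 13.2% of all genes in either direction and 6.81% higher in AM: ATP2A2 (log2 1.52, SE 0.18, adjusted p = 3.20e-06), HRC (1.21, SE 0.21, adjusted p = 0.000377) and RYR2 (1.31, SE 0.37, adjusted p = 0.0253; edgeR). RYR2 was lost without AM ZNF711 replicate 1 (1.23, adjusted p = 0.0796) or 2 (1.24, 0.0862), or VM ZNF711 replicate 2 (1.37, 0.0691) or 3 (1.17, 0.121). The 5 genes that were lower in AM on average stood near 0: CACNA1C at 0.25, CACNB2 at 0.33, SLC8A1 at 0.20, PLN at -0.09 and CASQ2 at -0.15, none called. SLN stood at 0.86 (adjusted p = 0.459). The median of the 10 genes was 0.60, beside 0.00 for all genes, and 8 of the 10 values were above 0. The 12 reference genes had a median of 0.50 in the same comparison, 11 of them above 0, so that both lists moved the same way. The part of cell composition in this was not tested.

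In TRAC, LHX2 and ZNF503, the difference between the protocols depended on the replicate number. Averaged over these 3 targets, RYR2 was -0.64 in AM minus VM (log2) for number 1, -0.75 for number 2 and 0.95 for number 3. PLN stood at -1.71, -2.77 and 0.14, CACNA1C at -1.60, -1.86 and -0.32, and SLC8A1 at -0.90, -1.34 and -0.026. CASQ2 stood at -1.50, -1.69 and 0.09, and HRC at 0.53, 0.0061 and 0.60. ATP2A2 was also higher at number 3 but stood above 0 at every number, at 0.76, 0.50 and 1.34, and SLN stood at 3.27, 3.13 and 1.81. The reference genes split in the way of RYR2, at -1.01, -1.31 and -0.020. With ZNF711 there was no such split in RYR2, at 1.27, 1.35 and 1.30. What the numbers stand for is not given in the sources used here.

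Ratios taken inside each library cancel a change that both of their terms share. They cancel a change in the share of heart muscle cells only where both terms are used only in those cells. Markers of other cells differed: fibroblast markers summed to a mean of 5510 CPM in AM and 3092 in VM, endoderm and hepatic markers to 777 and 8106. Smooth muscle markers summed to 998 and 660. Of these, MYH11 (median 234 CPM in AM and 2.15 in VM), ACTA2 (502 and 308) and LMOD1 (39.5 and 38.2) had higher medians in AM. TAGLN (60.1 and 144), CNN1 (79.0 and 96.1) and SMTN (45.2 and 62.8) had lower ones. Whether other cells added to a member was not tested. Between AM and VM, 15 ratios were tested. Of these, 5 were between members and 10 were of each member to the mean log2 level of the 12 reference genes. The test was an exact permutation of AM and VM labels within each target, two-sided, whose smallest possible p is 1.25e-05, with Benjamini-Hochberg adjustment over the 15 ratios. It takes libraries of different targets as independent, which same-numbered libraries were not. In VM, number 3 of LHX2 and of ZNF503 deviated from their group means together with number 3 of TRAC (r 0.75 and 0.79). The p-values over all targets may therefore be too small. The ratio of SLC8A1 to ATP2A2, of the exchanger to the pump, was log2 -1.47 ± 0.09 in AM and 0.08 ± 0.26 in VM (SD, n = 12 each), a difference of -1.55 (exact p = 1.25e-05, adjusted p = 4.69e-05). The 2 protocols did not overlap in any target, ZNF711 included. The ratio of PLN to ATP2A2 was -5.64 ± 0.42 in AM and -3.53 ± 0.77 in VM, a difference of -2.11 (exact p = 1.25e-05, adjusted p = 4.69e-05). The ratio of SLN to PLN was -2.40 ± 1.08 in AM and -5.70 ± 2.15 in VM, a difference of 3.30 (exact p = 3.75e-05, adjusted p = 9.38e-05).

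Against the reference genes, ATP2A2 (1.48) and HRC (1.03) were higher in AM with the smallest p this permutation allows (exact p = 1.25e-05, adjusted p = 4.69e-05 for each). SLN (2.67, adjusted exact p = 0.000321), RYR2 (0.67, adjusted exact p = 7.5e-05) and TRDN (0.44, adjusted exact p = 0.000445) were also higher against them. PLN (-0.63, adjusted exact p = 0.00586) and CACNA1C (-0.43, adjusted exact p = 0.00452) were lower. CACNB2 (-0.21, adjusted exact p = 0.0727), CASQ2 (-0.37, adjusted exact p = 0.0798) and SLC8A1 (-0.06, adjusted exact p = 0.305) did not pass. With the median of the reference genes in place of their mean these 3 did pass, at -0.38 (adjusted exact p = 0.00225), -0.54 (0.0191) and -0.23 (0.0343), and CASQ2 did without the number 3 libraries (-0.56, 0.0374). RYR2 and TRDN, which did not pass the test in CPM, were thus higher in AM relative to the reference genes. CASQ2 was lower against RYR2 (-1.04, adjusted exact p = 0.000563) and SLN higher against ATP2A2 (1.19, adjusted exact p = 0.0167). In all, 12 of the 15 passed. When AM and VM were exchanged only within pairs of the same target and number, a test chosen after seeing the data, those 12 passed and CACNB2 against the reference genes did too (adjusted exact p = 0.0348). Without the number 2 libraries, PLN (-0.27, adjusted exact p = 0.133) and CACNA1C (-0.37, 0.109) against the reference genes and SLN against ATP2A2 (1.03, 0.106) no longer did, and the last was also lost without number 1 (0.94, 0.106).

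With ZNF711 alone, where 3 libraries against 3 cannot give an exact p under 0.1, the ratios of SLC8A1 to ATP2A2 (-1.31) and of PLN to ATP2A2 (-1.52) had that smallest exact p, as did CASQ2 to RYR2 (-1.49) and, against the reference genes, ATP2A2 (0.98), HRC (0.65), RYR2 (0.77), TRDN (0.35) and SLC8A1 (-0.33). The ratios with SLN did not: SLN to PLN stood at 0.67 (exact p = 0.3), SLN to ATP2A2 at -0.85 (exact p = 0.4) and SLN to the reference genes at 0.13 (exact p = 0.9).

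**Figure D3:**
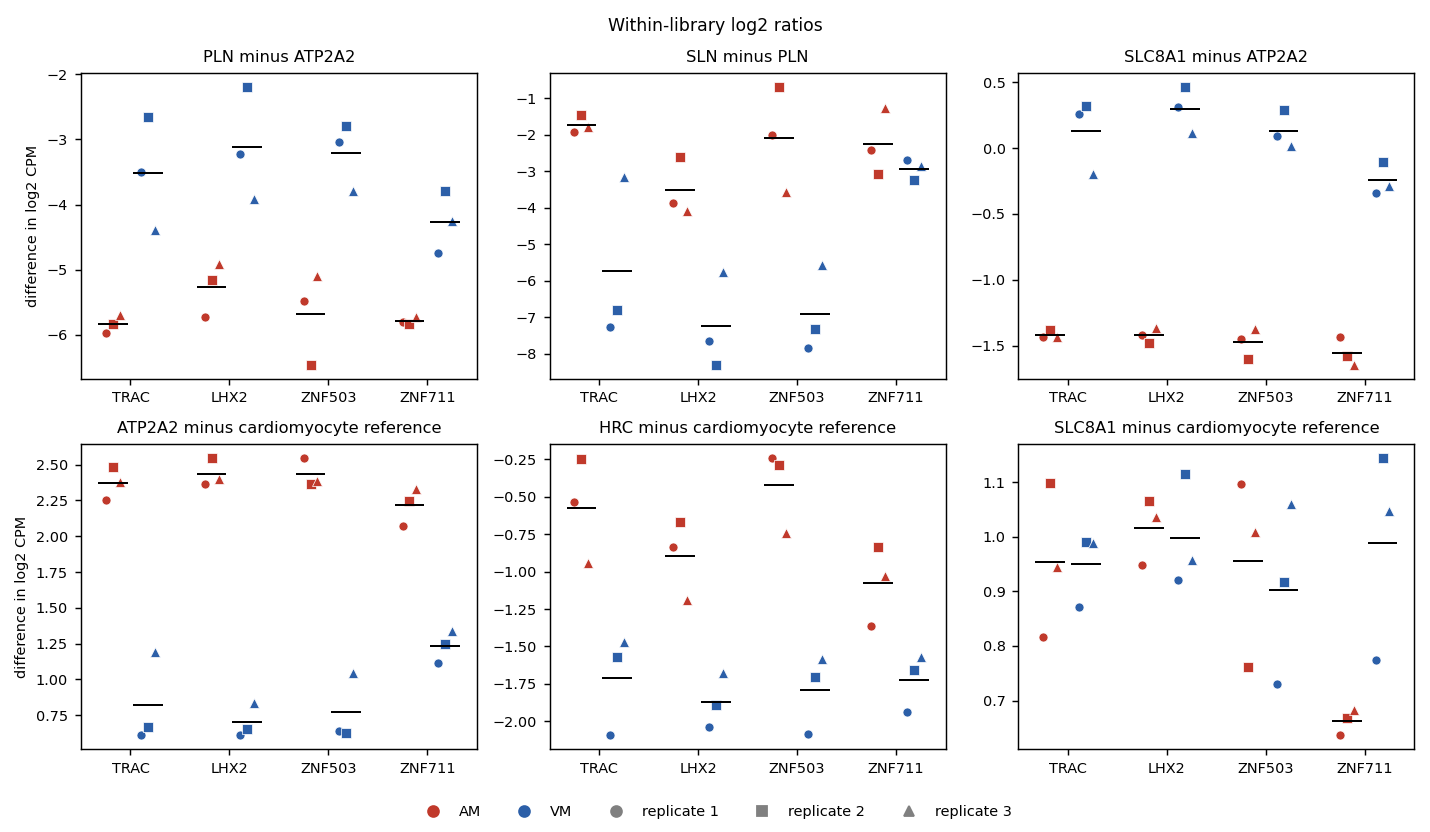
Within-library differences in log2 CPM for 6 of the ratios, by target, with AM in red, VM in blue, a marker shape for each replicate number and a black bar for the mean of 3 libraries. SLC8A1 minus ATP2A2 separates AM from VM in all 4 targets, with means of -1.47 and 0.08, while SLN minus PLN overlaps between the protocols in ZNF711.

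Directing CRISPR-Cas9 at LHX2, ZNF503 or ZNF711 was compared with TRAC within each protocol, to ask whether targeting these genes changed the 10. In AM, 0 of the 10 genes passed with any of the 3 targets in edgeR, against 0% of all genes, and 0 had an unadjusted p under 0.05; DESeq2 also called 0. The largest differences were SLN with LHX2 (log2 -1.20, adjusted p = 0.709), CASQ2 with ZNF503 (-0.90, adjusted p = 1) and PLN with ZNF711 (0.31, adjusted p = 1). A fit with a separate replicate block in each protocol called 1 gene, HRC with LHX2 (-0.41, adjusted p = 0.0330), against 3.11% of all genes. In VM, 0 of the 10 passed with LHX2 or ZNF503, against 0% of all genes, and 0 by DESeq2. SLN had the largest difference with both, at -2.66 with LHX2 (adjusted p = 1), where it alone had an unadjusted p under 0.05, and at -1.89 with ZNF503 (adjusted p = 1). The values of SLN rest on 25 counts in VM TRAC, 21 of them in replicate 3, and on 3 in VM LHX2 and 5 in VM ZNF503. Without VM TRAC replicate 3 they were -0.96 and -0.19.

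VM ZNF711 against VM TRAC had the largest median difference of the 6 comparisons with TRAC. None of the 10 genes passed in edgeR, against 0.0169% of all genes, yet 6 had an unadjusted p under 0.05, as did 1666 of the 17724 genes tested. SLN had the largest value, given last, and CACNA1C (log2 -1.41, adjusted p = 0.217) the next, followed by RYR2 (-1.27, 0.274), CACNB2 (-1.22, 0.209), PLN (-1.17, 0.571) and TRDN (-1.05, 0.379). HRC (-0.71, 0.241), SLC8A1 (-0.65, 0.371), CASQ2 (-0.32, 0.858) and ATP2A2 (-0.26, 0.688) were smaller. SLN stood alone above 0, at 1.46 (adjusted p = 0.551). The median of the 10 was -0.88, beside -0.01 for all genes, while the 12 reference genes had a median of -0.66 with all 12 below 0, and the endoderm and hepatic list summed as given above. Their part in the result was not tested.

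The call depended on how the number 3 control was treated. VM TRAC replicate 3 stood with the VM ZNF711 libraries in RYR2 (412 CPM beside 335 to 478), CACNA1C (108 beside 76.5 to 124) and TRDN (48.3 beside 39.5 to 63.0). Without it, 6 of the 10 were lower in VM ZNF711, against 3.44% of all genes called: CACNA1C (-1.81, adjusted p = 0.00656), RYR2 (-1.66, 0.0111), CACNB2 (-1.55, 0.00918), TRDN (-1.42, 0.0371), SLC8A1 (-0.87, 0.0492) and HRC (-0.87, 0.0298). Without all number 3 libraries, 5 were called against 4.97% of all genes. The replicate block called 2, CACNB2 (-1.19, adjusted p = 0.0327) and HRC (-0.69, adjusted p = 0.00837), against 2.27% of all genes; DESeq2 also called 2, against 0.429%, and a separate block in each protocol 6, against 8.38%.

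**Figure D4:**
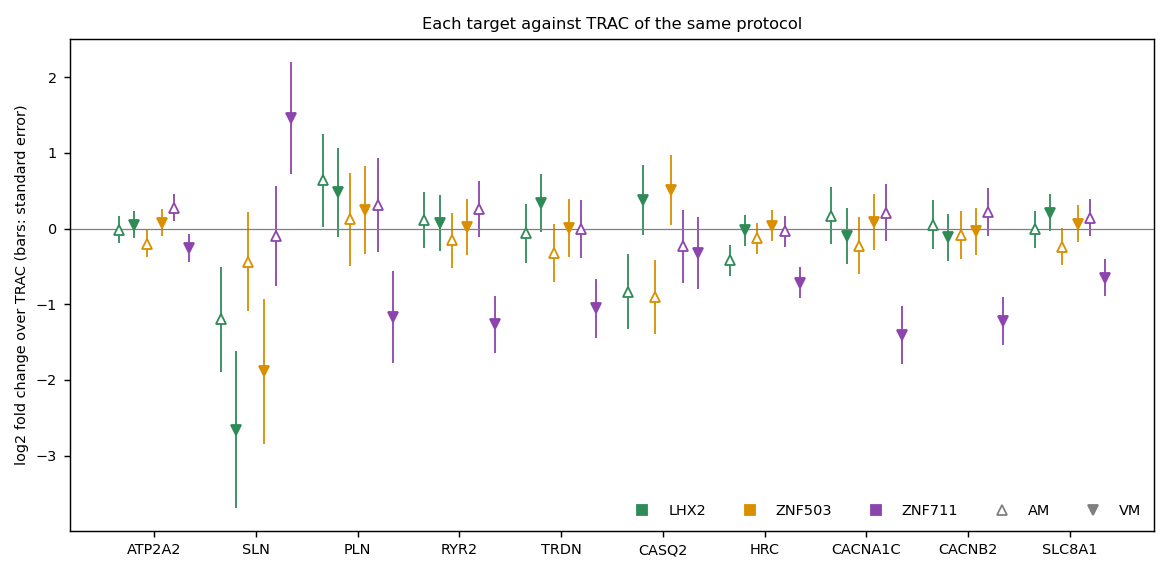
Difference from TRAC of the same protocol on a log2 scale for each of the 10 genes with LHX2, ZNF503 and ZNF711, in AM (open, upward) and in VM (filled, downward), with bars for the standard error. In VM ZNF711, 9 of the 10 values are below 0, from -0.26 for ATP2A2 to -1.41 for CACNA1C, SLN is at 1.46, and no value in the plot passes the test.

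Whether the AM against VM difference itself depended on the target was tested as an interaction with TRAC. In edgeR 0 of the 10 genes passed for LHX2 or ZNF503, against 0% of all genes for each, with 0 and 1 (CASQ2) at an unadjusted p under 0.05. SLN had the largest value in both, at 1.46 and 1.45. Without VM TRAC replicate 3 these became -0.24 and -0.25. For ZNF711, 0 passed, against 0.00564% of all genes, with 6 at an unadjusted p under 0.05. CACNA1C had the largest value (1.61, adjusted p = 0.589), and RYR2 (1.52), PLN (1.48), CACNB2 (1.44) and TRDN (1.05) followed, with ATP2A2 at 0.53 and SLN at -1.56. The median was 0.92, beside 0.02 for all genes. Without the number 3 libraries 4 passed, against 1.61% of all genes: CACNA1C (1.98, adjusted p = 0.000326), RYR2 (1.94, adjusted p = 6.90e-05), CACNB2 (1.63, adjusted p = 0.0117) and TRDN (1.33, adjusted p = 0.0461). With the replicate block 0 passed, against 0.0282% of all genes, and with a separate block in each protocol 7, against 2.54%. DESeq2 called 0 for each of the 3 interactions.

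The wider calcium machinery was read from a list of 76 other genes grouped by role, 69 of which were tested. Between AM and VM, averaged over the targets, 20 were higher and 18 lower, beside the 16.8% and 17.6% of all genes given above, with a median of log2 0.03 beside -0.01 for all genes. Without the number 3 libraries 18 were higher and 19 lower. The roles and single genes that follow were described from the fit of all libraries. Channels and subunits of the surface membrane gave 6 higher and 3 lower of 14. CACNA1D, the L-type pore known from pacemaker and atrial cells, averaged 236 CPM in AM and 66.2 in VM (log2 1.85, adjusted p = 5.70e-12), the opposite of CACNA1C. CACNA1G, a T-type pore, averaged 78.3 and 20.7 CPM (2.0, adjusted p = 6.98e-07), while RRAD, a small GTPase that restrains L-type channels, averaged 17.3 and 47.1 CPM (-1.47, adjusted p = 7.49e-05). The auxiliary subunit genes CACNG6 (1.85), CACNG4 (1.1) and CACNA2D1 (0.76) were higher and CACNG7 (-2.14) was lower. All these calls are from edgeR.

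Partners of the release channel gave 4 higher and 6 lower of 17. JPH2, the junctophilin that holds the surface and reticulum membranes together in heart muscle, averaged 110 CPM in AM and 231 in VM (log2 -1.07, adjusted p = 9.84e-08), and JPH1 (-0.77), RYR3 (-1.26) and S100A1 (-2.45) were lower too. ITPR2, an inositol trisphosphate receptor, was higher (0.65, adjusted p = 1.86e-05). Store proteins gave 1 higher and 3 lower of 7, with CASQ1 (-0.66) lower like CASQ2. Other pumps gave 1 higher, ATP2B1 of the surface membrane (0.62), and 1 lower, ATP2A3 (-0.74), of 7. Of 12 exchangers and entry routes, SLC8A3 (0.89) was among 2 higher, and SLC8A2 (-1.01) among 3 lower.

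Regulators gave 6 higher and 2 lower of 12. PPP1R1A, an inhibitor of protein phosphatase 1, which reverses the phosphorylation of phospholamban, averaged 179 CPM in AM and 76.8 in VM (log2 1.26, adjusted p = 1.17e-06). ADRB1, the beta-1 adrenergic receptor, averaged 2.10 and 0.269 CPM (adjusted p = 0.000212; edgeR), the VM level being below 3 counts in a library. CAMK2B (0.91) and CAMK2A (0.70) were higher, and CAMK2D (-0.30), the main cardiac form of the kinase, was lower. None of the 69 genes was called between VM ZNF711 and VM TRAC in edgeR, where their median was -0.02 beside -0.88 for the 10 genes. Without the number 3 libraries 3 were higher and 8 lower in VM ZNF711, against 4.97% of all genes.

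**Figure D5:**
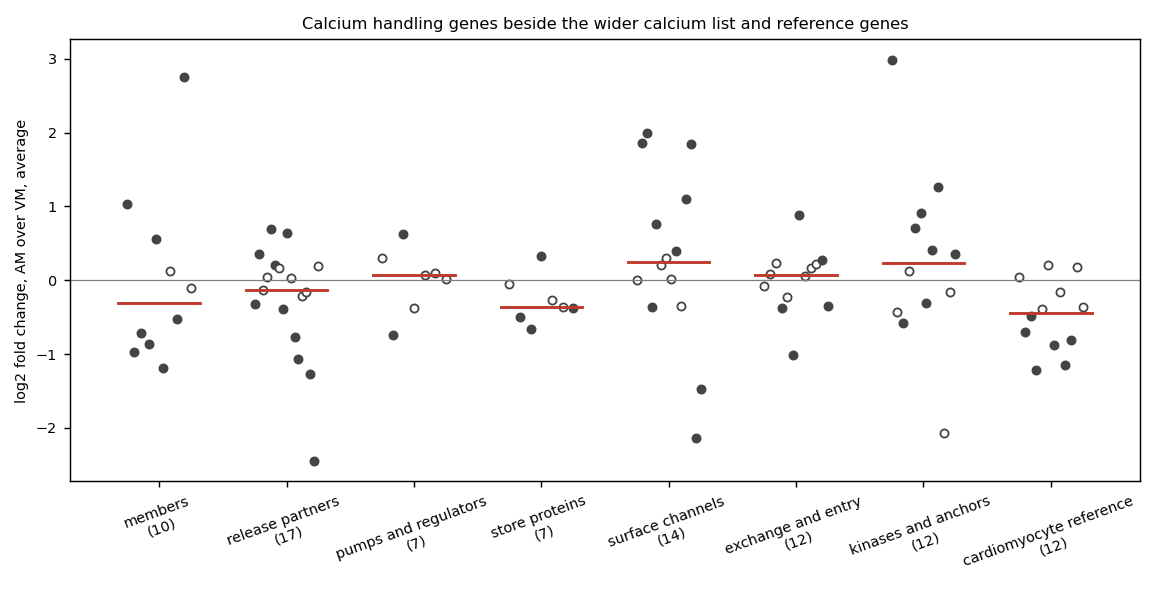
Difference between AM and VM on a log2 scale, averaged over the 4 targets, for the 10 genes, for 69 genes of the wider calcium list by role and for the 12 reference genes, each point a gene, filled where called, with a red line for the median. Surface channels reach from -2.14 for CACNG7 to 2.0 for CACNA1G, and the median is -0.31 for the 10 genes, 0.03 for the wider list and -0.44 for the reference genes.

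Promoter windows, from 250 bases before to 50 after an annotated start, were available in the RefSeq table (GRCh38) for 9 of the 10 genes, 15 windows in all. They were searched on both strands for 4 motifs of factors active in the heart. The GATA letters AGATAA were in 3 of the 15 windows, those of PLN, CACNB2 and SLC8A1, and in 10.3% of all 35116 windows. The T-box letters AGGTGT were in 1, of ATP2A2, and in 11.4% of all. The letters AGGTCA, a nuclear receptor half-site of the kind bound by retinoic acid receptors and NR2F2, were in none of the 15 and in 13.8% of all, and the core motif of MEF2 factors was in none and in 2.73% of all. The windows of PLN (chr6:118548046-118548345, plus strand), lower in AM, and of ATP2A2 (chr12:110280366-110280665, plus strand), higher in AM, are shown with the match in capitals, which in both is on the other strand.
PLN promoter: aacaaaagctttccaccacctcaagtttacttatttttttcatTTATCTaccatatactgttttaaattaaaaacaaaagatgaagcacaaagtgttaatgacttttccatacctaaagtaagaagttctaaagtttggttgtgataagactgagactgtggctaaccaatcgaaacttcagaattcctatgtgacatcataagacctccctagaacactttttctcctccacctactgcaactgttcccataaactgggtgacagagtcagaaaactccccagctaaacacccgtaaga
ATP2A2 promoter: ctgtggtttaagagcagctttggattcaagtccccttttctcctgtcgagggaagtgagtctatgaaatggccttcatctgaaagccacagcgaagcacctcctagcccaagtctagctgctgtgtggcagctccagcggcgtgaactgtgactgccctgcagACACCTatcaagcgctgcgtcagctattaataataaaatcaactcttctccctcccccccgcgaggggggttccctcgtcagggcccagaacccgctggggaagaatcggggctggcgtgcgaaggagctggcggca

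Other genes ran along with these across the 24 libraries once the mean of each protocol was subtracted, among 11420 genes searched. The correlations are descriptions over libraries that share protocol, target and number and, in VM, fall into sets. The closest to ATP2A2 was HSPB7, a small heat shock protein of heart muscle (Pearson r 0.95), and the closest to HRC was PPP1R1A (0.95). LAMA2 was closest to both RYR2 (0.98) and CACNA1C (0.96), ERBB4 to TRDN (0.97), TMOD1 to SLC8A1 (0.96), KCNH7 to CACNB2 (0.94) and KCTD12 to PLN (0.93). ADAR was closest to SLN (0.88) and ARHGAP1 to CASQ2 (0.79), the 2 genes with the fewest counts. RYR2 and CACNA1C had an r of 0.97 with each other, 0.71 over the 12 AM and 0.99 over the 12 VM libraries, and RYR2 and SLN one of -0.77.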

How the data were processed

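The authors deposited 1 table of raw read counts per gene for 24 libraries (Ensembl identifiers, 62757 genes, 62686 with a symbol). STAR and GRCh38 are named by the submitters' processing notes; the counting program, its use of strand and the annotation release are not given in the sources used here. The labels name both polyA RNA and ribosomal depletion with the KAPA RiboErase kit (Roche), so which was used is not settled.

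Counts were scaled by TMM (factors 0.905 to 1.08), filtered with filterByExpr and fitted with edgeR 4.0.16 (glmQLFit, robust; R 4.3.3, limma 3.58.1), with 1 mean for each of 8 groups, 16 residual degrees of freedom and a biological coefficient of variation of 25.0%. Tests were 14: AM against VM averaged and in each target, each target against TRAC in each protocol, and interactions. A gene was called below a Benjamini-Hochberg adjusted p of 0.05 over 17724 genes. Ratios used log2 CPM with a prior count of 2 and exact permutation (numpy 2.4.6, scipy 1.17.1, Python 3.11.15). Lengths are union exons of GENCODE 29. Figures used matplotlib 3.10.9. The fit was tested on simulated data.

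The members, the gene lists and the tests were chosen with earlier results of these data known. The text names all 10 members, in each target comparison the called member or the one with the largest change, called genes of the wider list, and the closest genes by correlation of at least 3 log2 CPM on average. Single genes named from the wider list were picked among the called ones after their values were seen.

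Alternatives were other scalings (RLE, library size alone), filters (none, or 1 CPM in 3 libraries), DESeq2 1.42.0, fits of the compared groups only, replicate blocks, and libraries left out. Libraries with the same number in different groups deviated together from their group means (r 0.125 to 0.786 over 11428 genes). The numbers were taken to pair the libraries in the replicate blocks and in the exchange within pairs. The main edgeR fit and the main permutation test of the ratios did not use this pairing. Both took libraries of different targets as independent, so their p-values over the 4 targets may be too small. Replicates differed by more than counting noise (chi-square per degree of freedom 4.33 to 44.2), so none was taken as a repeat count of the same library. That spread cannot tell whether the libraries of a group came from separate cultures. The intervals of the SLN count ratios and the floors cover counting error only; that of RYR2 comes from the SE of the fit.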

Additional observations from a re-analysis of the deposited data

Results flagged for a closer look

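In CACNB2, the L-type channel subunit, the AM minus VM difference of every same-numbered pair of libraries was above 0 with ZNF711 and below 0 with LHX2 and with ZNF503. The mean difference with ZNF711 exceeded that with LHX2 by 1.25 and that with ZNF503 by 1.45 (log2). In SLC8A1, the exchanger, the same was seen, and the excess was 1.01 over LHX2 and 1.12 over ZNF503. Its pair numbered 3 was near 0 with LHX2 (-0.030) and at -0.16 with ZNF503, and that of TRAC was above 0 (0.12). These differences between ZNF711 and the other 2 targets were not tested. The tested interactions were with TRAC, where neither gene passed in the fit of all libraries. With ZNF711, the differences of the pairs numbered 1, 2 and 3 were 0.57, 0.05 and 0.43 for CACNB2 and 0.40, 0.07 and 0.17 for SLC8A1, so that both were near 0 in number 2.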

How the results depend on the processing

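The AM against VM calls averaged over targets were 8 to 9 of the 10 genes with libraries left out and 8 in every other alternative, the replicate block included. With libraries left out, the counts were 1 to 7 with TRAC (4 in the fit of all libraries), 1 to 9 with LHX2 (3), 3 to 8 with ZNF503 (6), 2 to 3 with ZNF711 (3), 0 to 6 for VM ZNF711 against TRAC (0), 0 to 4 for its interaction (0), 9 to 13 of the ratios (12), and 0 to 0 elsewhere. Without the filter, TRAC gave 7, LHX2 7, VM ZNF711 against TRAC 7 and its interaction 5, against 5.87%, 4.92%, 1.27% and 0.538% of all genes. With a replicate block in each protocol they gave 7, 7, 6 and 7, against 14.7%, 12.2%, 8.38% and 2.54% of all genes. That fit gave 1 for AM LHX2 against TRAC (3.11%), 9 with ZNF503 (12.5%) and 4 with ZNF711 (16.5%). The replicate block gave 2 for VM ZNF711 against TRAC, as did DESeq2, beside the shares given above. DESeq2 gave 6 with LHX2 and 7 with ZNF503, and fitting only the groups compared gave 1 with TRAC. No share of all genes is given here for these last counts or for the DESeq2 counts of 0 above, so they cannot be set beside it. For TRAC, LHX2 and ZNF503 with libraries left out, the shares are given above. With ZNF711, the count was 3 without the number 3 libraries, against 9.32% of all genes. The replicate block as a single term changed no call other than those given in the report. The cause of these changes was not tested.

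Signs changed only in differences that were not called in the fit of all libraries. RYR2 averaged over targets was -0.17 with a replicate block in each protocol. The other changes of sign came from leaving libraries out. The ranges were then -0.20 (without replicate 3) to 0.19 for RYR2 and -0.47 to 0.014 (without VM LHX2 replicate 2) for TRDN averaged over targets. Between AM and VM with TRAC they were -0.65 to 0.036 for RYR2, -0.81 to 0.14 for CASQ2 and -0.61 to 0.16 for TRDN, the high ends without VM TRAC replicate 1, 1 and 2. RYR2 with LHX2 ranged from -0.52 to 0.024 (without VM LHX2 replicate 2). With ZNF711, PLN ranged from -0.29 to 0.32 (without VM ZNF711 replicate 2) and CASQ2 from -0.56 to 0.067 (without AM ZNF711 replicate 1). CASQ2 in VM ZNF711 against TRAC ranged from -0.72 to 0.052 (without VM TRAC replicate 1), and its interaction from -0.33 (without AM ZNF711 replicate 3) to 0.41. The SLN interactions with LHX2 and ZNF503 ranged from -0.24 and -0.25, without VM TRAC replicate 3, to 2.30 and 2.12. The cause was not tested. Depth limits SLN and CASQ2 most, with 450 and 686 counts over 24 libraries.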
